A study of Arabidopsis thaliana with 12 samples.

Results

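The response of young leaves to abscisic acid (ABA) was described by comparing ABA-sprayed with mock-sprayed leaf 12 (L12) of Arabidopsis thaliana, which the rule takes as the 3 ABA-treated and the 3 mock-treated L12 libraries, or 6 of the 12 libraries in the series. The other 6 libraries came from old leaves (L7) with the same treatments. All plants were wild type Col-0, 28 to 35 days old (4 to 5 weeks), grown at 22°C and 60% relative humidity under a day length of 10 h and later 12 h. ABA was sprayed at 500 µM, and both solutions held 0.5% ethanol and Tween20, given as 0.02% in the sample labels and as 0.05% in the text of the series. Fully expanded L12 was collected 48 h after the spray, so the values show a late state of the response and say nothing of its first hours. The experiment was repeated 3 times, and how many plants entered a library is not given in the sources used here.

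ABA is the hormone through which plants signal water deficit. It binds receptors of the PYR/PYL family, which then inhibit clade A protein phosphatases 2C (PP2Cs), and this releases SnRK2 kinases that phosphorylate bZIP factors of the ABF and ABI5 group, ion channels and other targets. The bZIP factors bind ABA-responsive elements (ABREs) in promoters and turn on genes for dehydrins, other late embryogenesis abundant (LEA) proteins and the PP2Cs themselves, while ABA slows growth and closes stomata in leaves.

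Mock-treated L12 libraries held 18261275 to 21485394 counts on genes and ABA-treated ones 17245639 to 18016974. Of the 32678 genes in the table, 18291 reached a mean of 10 counts over the libraries and were tested. The library of mock-treated L12, replicate 3, stood apart, with a TMM factor of 0.748 against 1.08 to 1.3 in the other 5 young-leaf libraries. In that library short transcripts were more abundant and long ones less abundant than in the group mean (Spearman's rho of the deviation with transcript length -0.56 across 18179 genes), while in mock-treated replicate 2 the relation was the opposite (rho 0.58). This was not particular to mock-treated L12. Replicate 3 had -0.39 in ABA-treated L12 and -0.51 (mock) and -0.55 (ABA) in old leaves. Replicate 2 had 0.34 in ABA-treated L12 and 0.03 (mock) and 0.24 (ABA) in old leaves. The fitted change by ABA was itself related to transcript length (rho 0.36 across the same genes, and 0.38, 0.03 and 0.44 in the 3 replicate pairs), so the calls were also made after an adjustment for length and GC content. The mesophyll markers GLK1, GLK2, CAB3, RBCS1A and RCA were detected in all 6 libraries, with a summed level of 28000 to 52170 normalized counts (CPM, counts relative to the TMM-scaled library size) after mock and 17590 to 23950 after ABA. Defining markers of the shoot apex (STM, CLV3 and WUS) had no read in any of the 6 libraries, flower markers summed to at most 1.46 CPM, and seed markers to at most 4.85 CPM. In whole leaves, fewer cells of a type and less RNA per cell cannot be told apart.

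More genes fell than rose in young leaves after ABA. 268 genes rose and 563 fell, which is 1.47% and 3.08% of the tested genes and 4.54% in either direction (quasi-likelihood test in edgeR after Benjamini-Hochberg adjustment, where a call needs an adjusted p under 0.01 and a change of more than 1 on the log2 scale). The median log2 fold change was 2.2 among the genes that rose and -2.47 among those that fell, and 52 and 68 of them changed by more than 16-fold. Each called gene moved in its direction in all 3 replicate pairs, and the groups did not overlap for 263 of the 268 and 504 of the 563 (background over all tested genes 13.2% upward and 16.9% downward). The test chose these genes from the same libraries, so this agreement follows largely from the calls and is no separate support for them. The genes that rose summed to between 5811 and 6966 CPM after mock and to between 24080 and 27990 after ABA. The genes that fell summed to 55070, 38140 and 110000 CPM in mock replicates 1, 2 and 3, so their level before the fall differed widely between mock libraries, and to between 12540 and 20070 after ABA. The counts of calls depended on every library and on the block for replicate number. Without the block 67 genes rose and 72 fell, and without replicate 3 none was called (edgeR, 3152 genes with an unadjusted p below 0.05). Without mock replicate 1, 2 or 3 the numbers up and down were 67 and 156, 1120 and 945, or 86 and 184, and without ABA replicate 1, 2 or 3 they were 92 and 150, 117 and 147, or 100 and 119. For most gene lists with a call, the lowest and highest number of calls with any 1 of these 6 libraries left out is given. Adjustment for length and GC content gave 401 genes up (2.21%) and 547 down (3.01%), of which 250 and 475 were also called without it. Scaling by library size only moved the median of all genes by 0.42 on the log2 scale and gave 318 up and 252 down.

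**Figure D1:**
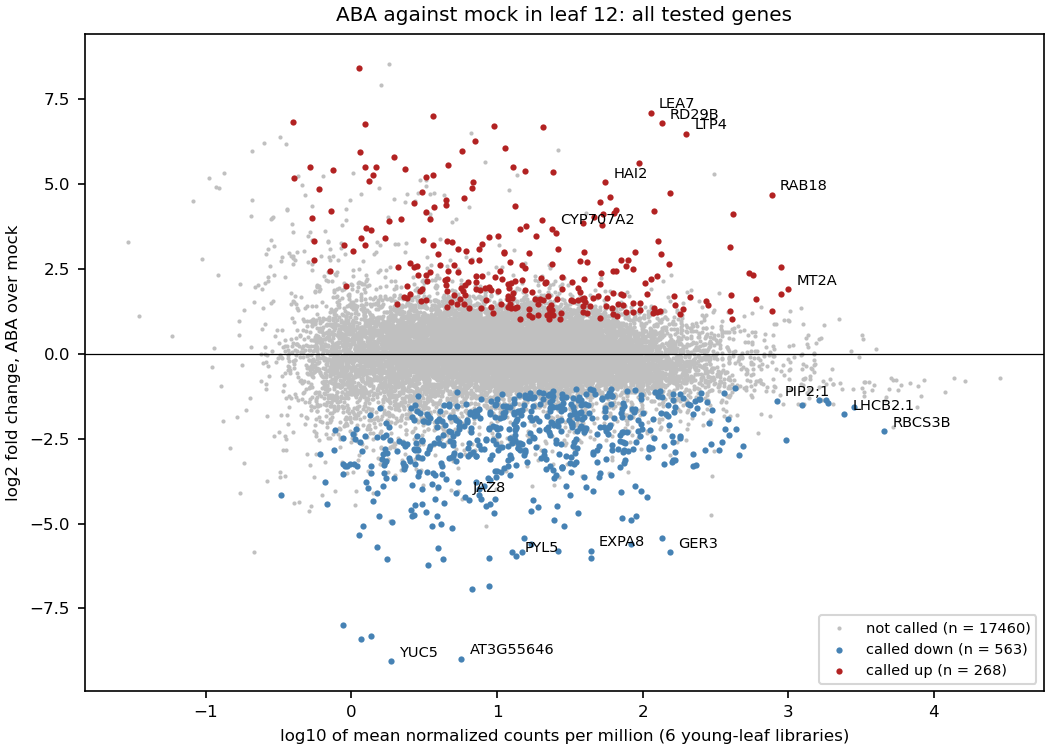
Each point is 1 of the 18291 tested genes, with the log10 of its mean normalized CPM over the 6 young-leaf libraries on the x axis and its fitted log2 fold change, ABA over mock, on the y axis. The 268 genes called up (red) and 563 called down (blue) lie across most of the range of abundance, with RAB18 and MT2A among the most abundant that rose and RBCS3B and LHCB2.1 among the most abundant that fell. Genes with no read in 1 group are drawn at their fitted value, which depends on the prior count.

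Some ABA receptor genes fell and some genes of the phosphatases that they inhibit rose. Of 14 receptor genes, 9 passed the filter on low counts, and of these 4 fell (3.08% of all genes) and none rose. The median log2 fold change of the 9 was -1.43 against 0.03 over all genes, and 7 were lower in all 3 pairs (28.5% of all genes). PYL5 (AT5G05440) had 3.97, 29.8 and 46.1 CPM in mock replicates 1, 2 and 3 and 0.276, 0.134 and 0.606 after ABA. Every ABA library lay far below the lowest mock library, although the mock level itself varied widely, and the log2 fold change was -5.95 (standard error, SE, 0.84, adjusted p = 0.00220). PYL6 (AT2G40330) had 0.517, 3.85 and 0.879 CPM after mock and no read in any ABA library against 119 reads in the mock group, which makes it at least 39.2-fold lower (3 counts over the group as the floor). All its young-leaf reads towards the filter on low counts came from mock, the group where it is high, so its call is not independent of the filter. Without mock replicate 2, 8 receptor genes were tested. PYL8 (AT5G53160), a receptor known for its role in roots, had 34.7, 28.7 and 37.1 CPM after mock and 9.57, 15.5 and 12.5 after ABA, which is -1.43 as a log2 fold change (SE 0.27, adjusted p = 0.00724). PYL1 changed by -1.56 (adjusted p = 0.00898), PYR1 had -1.24 with an adjusted p of 0.0128, and PYL7 (0.37) and PYL9 (0.70) had positive values that did not pass. After adjustment for length and GC content PYL5 and PYL6 were still called and PYL1 and PYL8 were not, and with 1 library left out the list held 0 to 3 calls.

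Of the 9 clade A PP2C genes, 7 were tested and all 7 were higher in all 3 pairs (28.2% of all genes). The test called 3 of them as rising (1.47% of all genes), and the median over the 7 was 2.15. HAI2 (AT1G07430) had 2.2, 8.10 and 0.952 CPM after mock and 65.6, 135.7 and 120.9 after ABA, a 33.2-fold rise (log2 fold change 5.06, SE 0.61, adjusted p = 0.00101, quasi-likelihood test in edgeR, Benjamini-Hochberg adjusted). HAI1 (AT5G59220) had 2.89, 4.53 and 8.71 CPM after mock and 40.8, 77.1 and 187.3 after ABA. Its ABA libraries spread widely and still did not overlap with mock, at a log2 fold change of 4.11 (SE 0.49). ABI2 (AT5G57050), the phosphatase of a classical ABA-insensitive mutant, had 16.2, 9.88 and 17.4 CPM after mock and 58.3, 69.4 and 66.7 after ABA, with a log2 fold change of 2.2. ABI1 (1.35, adjusted p = 0.0474), HAB1 (2.15, adjusted p = 0.0282) and PP2CA (1.23, adjusted p = 0.0455) did not pass. The list also held 3 calls after adjustment for length, and 2 or 3 with 1 library left out.

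The SnRK2 kinases downstream of the phosphatases had log2 fold changes between -0.05 (SNRK2.2) and 1.04 (SNRK2.7), and none of the 5 passed. The bZIP factors were higher in each pair for 5 of 5 genes, and ABI5 (AT2G36270), which is best known for arresting growth of germinating seedlings, passed. It had 1.25, 1.38 and 1.17 CPM after mock and 4.46, 5.97 and 3.59 after ABA (log2 fold change 1.86, adjusted p = 0.00814). ABF3 had 23.9, 21.7 and 24.8 CPM after mock and 72.4, 70.3 and 78.1 after ABA, groups that lay far apart, and its adjusted p of 0.0105 missed the threshold. AFP1 (AT1G69260), a protein that binds ABI5 and restrains ABA responses, rose from 1.47, 1.74 and 2.93 CPM to 15.2, 24.7 and 40.6 (log2 fold change 3.67, SE 0.55, adjusted p = 0.00265). With 1 library left out the kinases, bZIP factors and their partners together held 0 to 3 calls.

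Of the genes for ABA breakdown some rose, and none of the 5 tested genes for its synthesis passed. The 4 CYP707A genes encode the hydroxylases that start ABA breakdown, and 2 of them rose (1.47% of all genes). CYP707A2 (AT2G29090) had 3.71, 3.12 and 2.71 CPM after mock and 38.0, 37.3 and 57.6 after ABA, and the 12.9-fold rise exceeded the spread within either group (log2 fold change 3.68, SE 0.41, adjusted p = 0.000830). CYP707A4 (AT3G19270) had 0.690, 0.890 and 0.952 CPM after mock and 9.71, 6.11 and 11.3 after ABA (log2 fold change 3.3). CYP707A1 (2.14, adjusted p = 0.0188) and CYP707A3 (-2.38, adjusted p = 0.0162) had values of opposite sign and did not pass. CYP707A3 had 301 CPM in mock replicate 3 against 83.1 and 47.7 in the other mock libraries. NCED3, the rate-limiting enzyme of ABA synthesis under stress, had a log2 fold change of -0.96 (adjusted p = 0.111), and ABA2, a later step, had -1.29 (adjusted p = 0.0118). DESeq2, limma with voom and the adjustment for length and GC content each called 1 synthesis gene as lower.

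**Figure D2:**
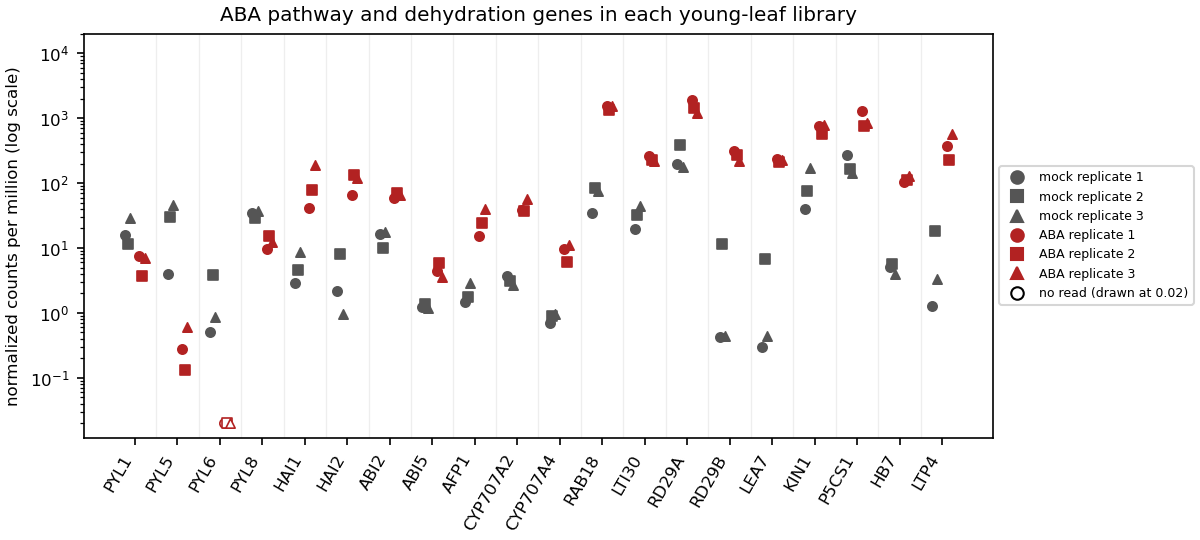
Normalized CPM on a log scale for 20 genes of the ABA pathway and of dehydration responses, with 1 symbol for each library (grey, mock; red, ABA; shape, replicate number). For RAB18 the 3 ABA libraries sit between 1352 and 1556 CPM and the 3 mock libraries between 35.0 and 82.9, while the receptors PYL5 and PYL6 sit lower after ABA, PYL6 with no read in any ABA library.

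Several genes for dehydrins and other protective proteins of dry or cold cells rose. RAB18 (AT5G66400), a dehydrin and the marker gene of the ABA response in this study, had 35.0, 82.9 and 75.2 CPM after mock and 1527, 1352 and 1556 after ABA. All ABA libraries were far above the highest mock library, and the fold change was 25.7 (log2 fold change 4.68, SE 0.37, adjusted p = 0.000214, quasi-likelihood test in edgeR, Benjamini-Hochberg adjusted). LTI30, another dehydrin, rose from 19.4, 31.9 and 44.5 CPM to 261.9, 230.5 and 220.1 (log2 fold change 2.93). XERO1 was the third dehydrin called, and with 77 reads after ABA and 2 after mock its ratio of 35.2 is known only to between 9.43 and 296 (95% exact interval, counting error only). The other 4 of 7 dehydrins did not pass, so the list median was 0.54, and over all genes 1.47% rose. Between 2 and 3 were called with 1 library left out.

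Of 15 RD, COR, KIN and LEA genes, 13 were tested, 5 rose (1.47% of all genes) and 1 fell (3.08% of all genes), with a median of 1.02. With 1 library left out 2 to 5 rose and 0 or 1 fell, and 6 rose after adjustment for length and GC content. Among all 47 tested genes annotated as LEA proteins 3 rose and 4 fell (1.47% and 3.08% of all genes), with a median of 0.24. RD29B (AT5G52300), a hydrophilic protein gene long used to report ABA signalling, had 0.431, 11.7 and 0.439 CPM after mock and 314.7, 267.5 and 216.6 after ABA. Mock replicate 2 was far above the other mock libraries and still far below the lowest ABA library, and the log2 fold change was 6.79 (SE 0.99, adjusted p = 0.00241). Its neighbour RD29A (AT5G52310) had 199.9, 392.2 and 175.3 CPM after mock and 1929, 1446 and 1187 after ABA (log2 fold change 2.56, SE 0.34). LEA7 (AT1G52690) had 0.302, 6.72 and 0.439 CPM after mock and 232.4, 211.4 and 230.1 after ABA, with mock replicate 2 again the highest of its group (log2 fold change 7.10, SE 1.31, adjusted p = 0.00710). LEA7 and RD29B were the largest and the third largest rises among genes with at least 5 CPM in the higher group. LEA4-5 rose by 3.93 and KIN1 by 3.15 on the log2 scale, where KIN1 shares most of its sequence with KIN2 and its level is uncertain because reads with several matches in the genome were left uncounted. COR15B (AT2G42530), a chloroplast protein of cold acclimation, went the other way, from 567.6, 342.3 and 935.4 CPM to 128.0, 108.9 and 246.1 (log2 fold change -1.92, SE 0.31, adjusted p = 0.00397). The linker histone gene HIS1-3, known to rise in drought, had 4.53, 25 and 11.1 CPM after mock and 195.0, 298.8 and 180.1 after ABA (log2 fold change 4.21, adjusted p = 0.000985).

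The promoters of these genes are shown because ABREs in them are the known route from ABA to transcription. The sequences are the 250 bases before the annotated transcript start, read from the RefSeq assembly TAIR10.1 on the strand of the gene, with each match to the ABRE core ACGTG on either strand in capitals. They cover chr5:26519448-26519697 (minus strand) for RAB18, chr5:21236771-21237020 (plus) for RD29B, chr1:19619474-19619723 (plus) for LEA7, chr1:2282829-2283078 (minus) for HAI2 and chr5:23925958-23926207 (minus) for LTP4, a lipid transfer protein gene with one of the largest rises and no match.
RAB18: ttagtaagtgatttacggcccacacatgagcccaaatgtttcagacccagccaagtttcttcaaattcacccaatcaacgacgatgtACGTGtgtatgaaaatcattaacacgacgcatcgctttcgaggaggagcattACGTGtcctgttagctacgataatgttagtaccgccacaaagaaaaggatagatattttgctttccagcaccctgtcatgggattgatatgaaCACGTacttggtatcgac
RD29B: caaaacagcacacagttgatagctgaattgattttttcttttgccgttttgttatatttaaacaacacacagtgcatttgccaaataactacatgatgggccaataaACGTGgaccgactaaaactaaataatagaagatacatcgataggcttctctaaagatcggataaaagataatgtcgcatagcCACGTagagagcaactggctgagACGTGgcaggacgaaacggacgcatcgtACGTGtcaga
LEA7: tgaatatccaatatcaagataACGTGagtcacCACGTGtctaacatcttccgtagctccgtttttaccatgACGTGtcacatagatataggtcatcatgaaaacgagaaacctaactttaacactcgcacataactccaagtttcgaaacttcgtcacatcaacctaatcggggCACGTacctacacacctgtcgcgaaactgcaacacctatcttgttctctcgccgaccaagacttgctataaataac
HAI2: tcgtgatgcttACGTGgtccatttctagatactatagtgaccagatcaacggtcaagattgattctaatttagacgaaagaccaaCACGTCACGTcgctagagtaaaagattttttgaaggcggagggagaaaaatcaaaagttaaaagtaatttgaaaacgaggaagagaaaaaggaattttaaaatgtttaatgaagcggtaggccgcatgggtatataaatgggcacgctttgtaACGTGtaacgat
LTP4: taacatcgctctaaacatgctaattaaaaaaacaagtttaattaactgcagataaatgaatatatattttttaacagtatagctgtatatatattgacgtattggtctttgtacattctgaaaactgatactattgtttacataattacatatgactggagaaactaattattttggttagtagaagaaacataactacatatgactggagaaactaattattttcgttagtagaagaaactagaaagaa
RAB18 held 3 matches, RD29B and HAI2 4 each, and LEA7 5, of which a pair overlap in 1 palindrome, while LTP4 held none, which says only that these letters are not in this window. Over the window from 250 bases before to 50 bases after the start, 48.5% of the 268 promoters of genes that rose held ACGTG on either strand, against 32.1% of 561 promoters of genes that fell and 27.8% of all 18178 promoters. The extended form ACGTGTC, which contains the core, was found in 16.8%, 4.63% and 5.20%, and ACGTGGC, which contains it too, in 10.4%, 4.46% and 4.97%. CCGAC, the core of the drought-responsive element, was found in 14.6% of promoters of genes that rose, 13.7% of those that fell and 16.6% of all. The E2F core TTCCCGC, a motif of S phase genes, was found in 0.373%, 1.25% and 1.61%. These shares describe letters in a window and were not tested. RD29A held 4 matches to CCGAC and no ACGTG, and HAI1, HB7 and LTP3 held no match to ACGTG.

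**Figure D3:**
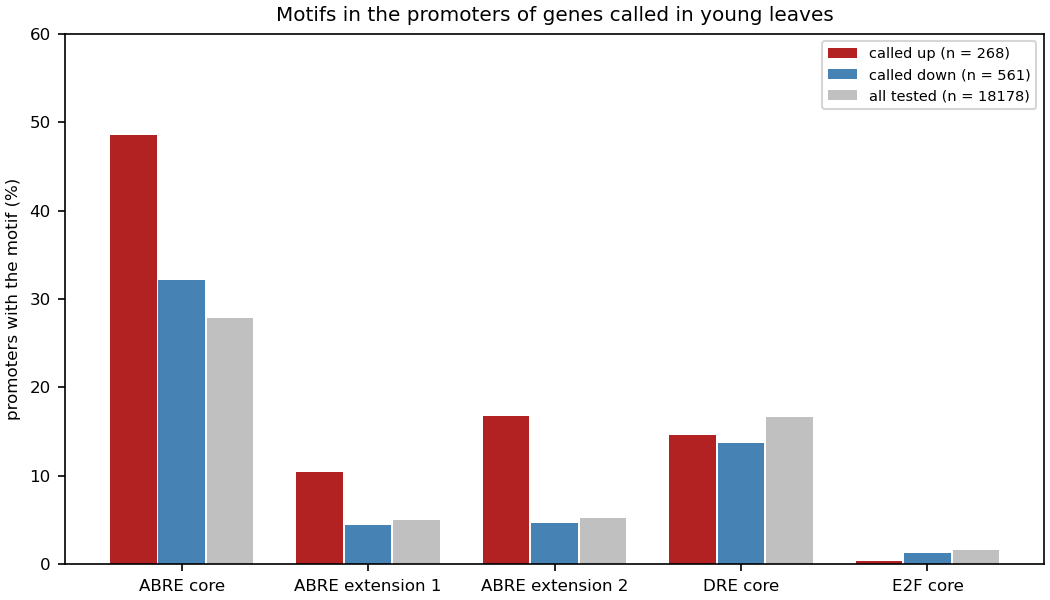
Bars give the share of promoters (in percent, 250 bases before to 50 after the start) that hold each motif on either strand, for genes called up, called down and all tested genes. The ABRE core was found in 48.5% of promoters of genes that rose against 27.8% of all, and the DRE core in 14.6% against 16.6%.

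Genes for osmolytes and sugars were called in both directions. P5CS1 (AT2G39800) and P5CS2 (AT3G55610), the paired first enzymes of proline synthesis, rose by 2.32 and 2.08 on the log2 scale. P5CS1 had 267.1, 167.0 and 145.1 CPM after mock and 1273, 761.0 and 829.6 after ABA, without overlap (adjusted p = 0.00429, quasi-likelihood test in edgeR, Benjamini-Hochberg adjusted). GOLS3, a galactinol synthase induced by cold, had 21.8, 1.70 and 29.7 CPM after mock and 2.71, 0.847 and 2.47 after ABA. Its groups overlapped because mock replicate 2 lay within the range of the ABA libraries, and it was called as falling within pairs (log2 fold change -2.67). In the proline and raffinose list 0 to 2 genes rose and 0 or 1 fell with 1 library left out. SUS3 (AT4G02280), a sucrose synthase that cleaves sucrose, had 2.33, 5.63 and 1.68 CPM after mock and 39.4, 32.6 and 28.8 after ABA (log2 fold change 3.48, adjusted p = 0.00159). CWINV5, annotated as a cell wall invertase, had 0, 0.567 and 0 CPM after mock and 23.4, 12.7 and 20.1 after ABA, so its rise was large and its size uncertain. CWINV1 (AT3G13790), the main cell wall invertase of leaves, fell from 24.0, 50.5 and 18.2 CPM to 3.5, 6.42 and 4.89 (log2 fold change -2.49, adjusted p = 0.00595). In the sucrose and starch list 2 of 13 tested genes rose and 1 fell (1.47% and 3.08% of all genes). With 1 library left out 1 to 6 rose. NADP-ME1, a cytosolic malic enzyme, had 3 reads over the mock group and 487 after ABA, a ratio of 149 with a 95% exact interval of 50.5 to 723.

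Among transcription factors of dehydration, HB7 (AT2G46680), an HD-ZIP factor that acts in a negative loop on ABA signalling, rose from 5.04, 5.67 and 3.95 CPM to 103.0, 112.3 and 130.2. The spread within each group was small beside this 24.7-fold change (log2 fold change 4.63, SE 0.52, adjusted p = 0.000853). HB21 (AT2G18550), known from axillary buds, where it promotes ABA accumulation, had no read in any mock library and 152 reads after ABA, at least 46.0-fold higher. HB7 and HB21 were the 2 calls among 7 tested HD-ZIP class I factors (1.47% of all genes rose), whose median was 0.26. Of the 7, 3 were higher and 3 lower in all 3 pairs (28.2% and 28.5% of all genes). With 1 library left out 1 or 2 were called. HSFA6A, a heat shock factor, rose from 0.172, 1.46 and 0.293 CPM to 20.6, 25.9 and 28.7 (log2 fold change 5.50, adjusted p = 0.000354). NF-YA5, a CCAAT-binding factor that promotes drought tolerance, rose from 2.24, 2.71 and 0.952 CPM to 12.9, 13.7 and 12.5 (log2 fold change 2.76). In the SNAC-A group of NAC factors, which act in leaf senescence and ABA signalling, NAC072 had 22.3, 16.6 and 31.8 CPM after mock and 57.3, 86.5 and 116.1 after ABA with an adjusted p of 0.0212, and NAC032 had a log2 fold change of 1.78 with an adjusted p of 0.0183. None of the 7 SNAC-A genes passed edgeR's test, and 4 had an unadjusted p below 0.05 with higher values after ABA (6257 of all 18291 genes in either direction). DESeq2 called 3 (4.32% of all genes upward) and limma with voom none.

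Cuticle and lipid transfer genes rose in part. Of 22 genes listed, 21 were tested and 6 rose (1.47% of all genes), while the median was -0.05, so most of the list did not follow. LTP4 (AT5G59310) had 1.29, 18.2 and 3.37 CPM after mock and 369.9, 225.6 and 573.9 after ABA (log2 fold change 6.48, SE 0.95, adjusted p = 0.00254, quasi-likelihood test in edgeR, Benjamini-Hochberg adjusted). LTP3 (AT5G59320), its neighbour, had 25.3, 72.7 and 48.3 CPM after mock and 875.6, 510.2 and 978.8 after ABA (log2 fold change 4.12). LTP2 (AT2G38530), a lipid transfer protein of the epidermal surface, had 16.7, 16.4 and 30.7 CPM after mock and 150.3, 133.9 and 128.9 after ABA. The ABA values of LTP2 lay close together, and the log2 fold change was 2.76 (SE 0.27). CER1, which makes wax alkanes, rose from 85.9, 81.8 and 105.7 CPM to 257.6, 208.5 and 262.7 (log2 fold change 1.42). MYB94, a factor that turns on wax genes, rose by 1.19, and KCS2, which elongates fatty acids for suberin and wax, by 2.12. Leaving out 1 library gave 2 to 5 genes of the list up and 0 to 2 down. By annotated product, 8 of 44 lipid transfer proteins rose and 2 fell (1.47% and 3.08% of all genes). After adjustment for length and GC content 11 rose and 1 fell (2.21% and 3.01% of all genes).

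Of 19 flavonoid genes listed, 15 were tested and 4 rose (1.47% of all genes), with a median of 1.54, and 11 of the 15 were higher in all 3 pairs (28.2% of all genes). DFR (AT5G42800), which commits the pathway to anthocyanins, had 0.0862, 0.121 and 0 CPM after mock and 7.82, 0.490 and 5.58 after ABA. LDOX, the next enzyme, had 0.216, 0.0810 and 0.293 CPM after mock and 3.82, 0.535 and 5.84 after ABA (log2 fold change 3.91, adjusted p = 0.00505). For DFR, LDOX and the anthocyanin glucosyltransferase UGT75C1, ABA replicate 2 was by far the lowest ABA library. F3H, an earlier enzyme, rose from 2.46, 3.20 and 4.25 CPM to 20.1, 8.16 and 11.6 (log2 fold change 1.95). With 1 library left out 0 to 5 were called, and 5 after adjustment for length and GC content.

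The other genes with the largest rises were INT2, a myo-inositol transporter, with 0.0862, 0.243 and 0.220 CPM after mock and 13.4, 9.09 and 11.3 after ABA (log2 fold change 5.96, SE 0.47, adjusted p = 0.000214, quasi-likelihood test in edgeR, Benjamini-Hochberg adjusted), and DAA1, annotated as an ATPase, with 1.08, 14.5 and 0.805 CPM after mock and 187.1, 207.9 and 157.5 after ABA. DAA1, RD29B, LEA7 and LTP4 shared a raised value in mock replicate 2. That library was also the highest mock library for HSFA6A, AT5G15500, AT5G50360, HAI2, LTP3, RD29A and RAB18, though not for CSLG2 or HAI1. CSLG2, a cellulose synthase-like gene, had 4.05, 3.34 and 34.8 CPM after ABA, so its size rests mostly on ABA replicate 3. The ankyrin repeat gene AT5G15500, the von Willebrand domain gene AT5G50360 and the heavy metal transport domain gene AT4G08570 changed by 6.68, 6.06 and 5.56 on the log2 scale. By abundance, RAB18 and RD29A were joined by MT2A, a metallothionein, which rose from 288.2, 397.1 and 656.3 CPM to 1319, 1615 and 1722 (log2 fold change 1.90), and by AT4G23670, a Bet v1-like protein gene (1.76). FAD2 (AT3G12120), the desaturase that makes linoleic acid outside plastids, rose from 381.5, 462.0 and 530.2 CPM to 1118, 1163 and 986.2 (log2 fold change 1.26, SE 0.21).

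Photosynthesis genes were lower after ABA nearly throughout, though few passed the test. Of the 38 nuclear genes for photosystem subunits and antennae, 37 were lower in all 3 pairs (28.5% of all genes) and 5 passed (3.08% of all genes), with a median of -1.03. LHCB2.1 (AT2G05100), an antenna protein of photosystem II, had 3376, 1676 and 6535 CPM after mock and 1397, 594.2 and 1030 after ABA. Mock replicate 3 was far above mock replicate 2, and the groups did not overlap (log2 fold change -1.78, SE 0.31, adjusted p = 0.00592). LHCB2.3 changed by -2.55, the antenna gene LHCB4.3 by -1.53, PSAH2 of photosystem I by -1.46 and PSBQ1 of the oxygen-evolving complex by -1.36. PSAN (AT5G64040), a subunit of photosystem I outside the list, had 3606, 1926 and 7594 CPM after mock and 1304, 1105 and 1354 after ABA. PSBS, which switches on energy dissipation, overlapped between groups (-0.29, adjusted p = 0.482). The 38 genes summed to 223200, 159900 and 401900 CPM in mock replicates 1, 2 and 3 and to 133300, 114700 and 113900 after ABA. None of the 38 was called when any library but mock replicate 2 was left out, and 13 were called without that library, with medians between -1.22 and -0.75. The adjustment for length and GC content gave 7 calls and a median of -0.75. DESeq2 called 19 of the 38 as lower, against 6.91% of all genes.

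In carbon fixation, RBCS3B (AT5G38410), a small subunit of Rubisco, had 7135, 5480 and 10280 CPM after mock and 1744, 1250 and 1538 after ABA (log2 fold change -2.27, SE 0.33, adjusted p = 0.00242, quasi-likelihood test in edgeR, Benjamini-Hochberg adjusted). It shares most of its sequence with RBCS1B and RBCS2B, so its level is uncertain. GAPA2, a subunit of the Calvin cycle glyceraldehyde phosphate dehydrogenase, fell from 2640, 1375 and 3058 CPM to 1034, 623.3 and 1000. These were the 2 calls among 17 Rubisco and Calvin cycle genes (3.08% of all genes fell), whose median was -0.48. With 1 library left out 0 to 2 were called. In the list of 16 tested genes of chlorophyll breakdown and senescence none passed. ORE1 had 0.388, 0.283 and 0.220 CPM after mock and 0.966, 11.4 and 7.48 after ABA (adjusted p = 0.0257), NAP had an adjusted p of 0.0404, and WRKY53, an early senescence regulator, had -2.14 (adjusted p = 0.0154).

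A few genes that loosen the cell wall fell. EXPA8 (AT2G40610), an alpha-expansin, had 119.8, 7.37 and 134.5 CPM after mock and 0.782, 1.16 and 0.346 after ABA. Mock replicate 2 lay well below the other mock libraries and above the highest ABA library (log2 fold change -5.80, SE 1.11, adjusted p = 0.00840). EXPA3 fell from 31.9, 6.80 and 30.7 CPM to 4.69, 3.12 and 2.90. These were the 2 calls among 13 tested alpha-expansins (3.08% of all genes fell), with a median of -0.85. With 1 library left out 0 to 2 were called. The expansin-like gene EXLB1 rose instead, from 22.4, 25.8 and 31.6 CPM to 171.9, 101.4 and 162.7 (log2 fold change 2.49). Among 21 tested XTH genes, whose enzymes cut and rejoin xyloglucan, 2 fell (3.08% of all genes). XTH18 had 7.41, 15.3 and 147.2 CPM after mock and 0.690, 1.07 and 1.90 after ABA, with mock replicate 3 far above the others (log2 fold change -5.07). XTH31 had 24.5, 0.364 and 19.4 CPM after mock and 0.184, 0.0891 and 1.90 after ABA, and its groups overlapped. The XTH median was -1.31, and -0.35 without mock replicate 3, and 0 to 3 genes were called with 1 library left out. Of 77 genes annotated as pectin lyases or pectinesterases, which remodel pectin, 11 fell (3.08% of all genes) and none rose, and 3 to 15 fell with 1 library left out. PME5 had 14.1, 14.9 and 9.15 CPM after mock and 1.66, 1.96 and 1.13 after ABA, an even fall in all pairs (log2 fold change -3.00, SE 0.31, adjusted p = 0.000508). The 12 cellulose synthase genes had log2 fold changes around a median of 0.23, none with an unadjusted p below 0.05.

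Plasma membrane aquaporins fell in 4 of 13 genes (3.08% of all genes), 11 of the 13 were lower in all 3 pairs (28.5% of all genes), and the median was -1.05. PIP2;3 had 16.9, 5.63 and 27.8 CPM after mock and 0.644, 0.847 and 2.25 after ABA (log2 fold change -3.72, SE 0.44, adjusted p = 0.000944, quasi-likelihood test in edgeR, Benjamini-Hochberg adjusted). PIP2;2, of nearly the same sequence, had 106.0, 40.4 and 152.1 CPM after mock and 20.2, 22.2 and 18.8 after ABA, and the split of reads between these genes is uncertain. PIP1;2 fell from 546.6, 372.9 and 601.5 CPM to 258.4, 205.3 and 204.3 (log2 fold change -1.15), and PIP2;1, with overlapping groups, changed by -1.38. PIP2;5 had a positive value of 1.23 and an adjusted p of 0.0241. Leaving out 1 library gave 1 to 5 down and 0 or 1 up.

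Several histone genes fell, and no mitotic gene passed. Of 16 DNA replication genes, 3 fell (3.08% of all genes), and 1 to 3 fell with 1 library left out. All 3 called genes encode the replication-dependent histone H3.1 in near-identical copies, so their separate levels are uncertain. AT1G09200 had 55.4, 51.7 and 51.0 CPM after mock and 13.0, 14.2 and 11.4 after ABA, with close agreement within each group (log2 fold change -2.04, SE 0.24, adjusted p = 0.000944). AT5G65360 and AT5G10400 changed by -1.49 and -1.31, and after adjustment for length and GC content only AT1G09200 of the 3 was called. Across 41 genes annotated as histones 11 fell (3.08% of all genes) and 1, HIS1-3, rose (1.47% of all genes), with a median of -0.98. After that adjustment 6 fell (3.01% of all genes). With 1 library left out 1 to 11 histone genes fell, and 1 fell without ABA replicate 2, ABA replicate 3 or mock replicate 1. The 6 licensing genes of the MCM group had a median of -0.32. Of 19 mitotic genes none passed and 5 had an unadjusted p below 0.05 with lower values (6257 of all 18291 genes in either direction). The kinase gene AUR1 had 4.48, 5.63 and 3.81 CPM after mock and 1.79, 1.34 and 1.95 after ABA (adjusted p = 0.0263). Leaf growth regulators and stomatal lineage genes had no call either, and GRF3, which promotes leaf growth, had a log2 fold change of 0.00 (SE 0.39).

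**Figure D4:**
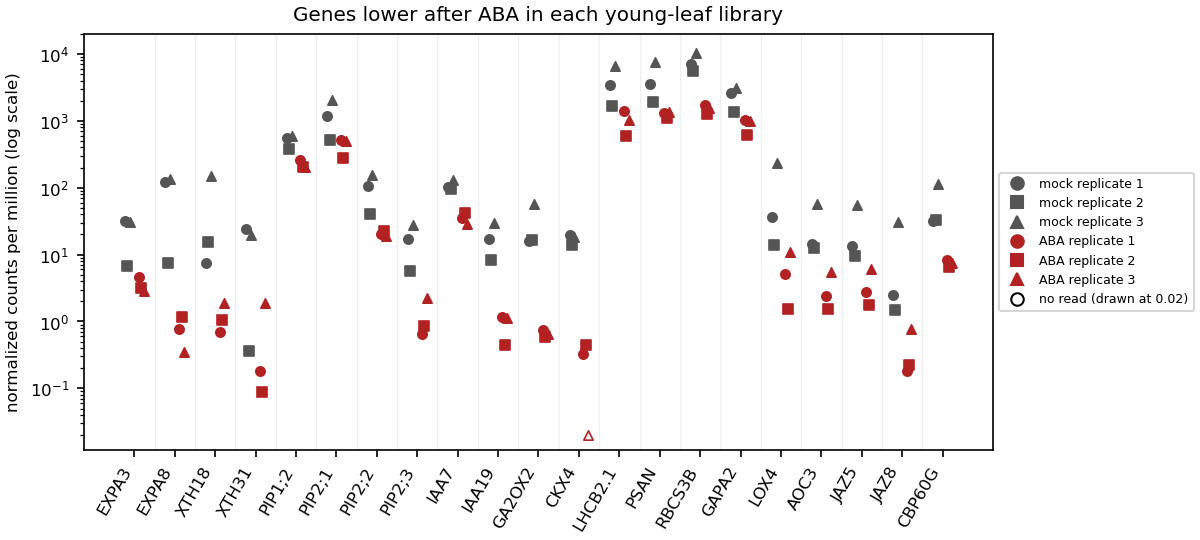
Normalized CPM on a log scale in each young-leaf library for 21 genes called down (grey, mock; red, ABA; shape, replicate number). Mock replicate 3 (grey triangles) is the highest library for most of the genes, as for LOX4 at 233.7 CPM, and mock replicate 2 (grey squares) overlaps with ABA for XTH31.

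Most called genes of auxin, gibberellin and cytokinin fell, and over all genes 563 of the 831 calls were falls. Of 19 tested auxin genes 4 fell and 1 rose (3.08% and 1.47% of all genes). Of 13 tested gibberellin genes 2 fell, and of 12 tested cytokinin genes 3 fell (3.08% of all genes). With 1 library left out 2 to 5 auxin genes, 0 to 2 gibberellin genes and 1 to 4 cytokinin genes fell. YUC5 (AT5G43890), an enzyme of auxin synthesis, had 1.51, 2.31 and 7.40 CPM after mock and no read in any ABA library, at least 83.8-fold lower. IAA19 (AT3G15540), a repressor that auxin induces, fell from 17.2, 8.38 and 30.1 CPM to 1.15, 0.446 and 1.13 (log2 fold change -4.27, SE 0.51, adjusted p = 0.000961, quasi-likelihood test in edgeR, Benjamini-Hochberg adjusted). IAA7 had 100.9, 94.6 and 131.4 CPM after mock and 35.6, 41.7 and 28.7 after ABA, and IAA17 changed by -1.90. GH3.5, which conjugates auxin to amino acids, rose by 1.88. Of 42 SAUR genes, small auxin-induced genes tied to cell expansion, 9 fell and 1 rose (3.08% and 1.47% of all genes), with a median of -1.38. With 1 library left out 0 to 10 SAUR genes fell, and 6 fell and 2 rose after adjustment for length and GC content. GA2OX2, which inactivates gibberellin, fell from 16.1, 16.6 and 57.8 CPM to 0.736, 0.579 and 0.649 (log2 fold change -5.43). RGL1, a DELLA repressor of gibberellin responses, fell from 16.2, 8.54 and 23.5 CPM to 1.93, 1.43 and 2.12. CKX4 (AT4G29740), which degrades cytokinin, had 19.4, 14.1 and 18.2 CPM after mock and 0.322, 0.446 and 0 after ABA, the largest change in the cytokinin list (log2 fold change -6.01, SE 0.72, adjusted p = 0.00101). CKX6 changed by -3.48 and ARR15, a response regulator that cytokinin induces, by -3.99. The 8 brassinosteroid genes had no call, and 1 had an unadjusted p below 0.05. Of 16 tested ethylene genes 2 fell (3.08% of all genes). In ethylene synthesis ACS6 fell (-2.24) with overlapping groups, and with 1 library left out 0 to 3 genes of the ethylene list fell.

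Of 23 tested salicylic acid genes 3 fell (3.08% of all genes) and 12 were lower in all 3 pairs (28.5% of all genes), with a median of -0.75. CBP60G (AT5G26920), a factor that turns on salicylic acid synthesis, had 32.3, 32.7 and 112.7 CPM after mock and 8.42, 6.60 and 7.57 after ABA (log2 fold change -2.73, SE 0.45, adjusted p = 0.00429, quasi-likelihood test in edgeR, Benjamini-Hochberg adjusted). GRX480, a glutaredoxin gene that salicylic acid induces, fell from 4.74, 4.29 and 40.6 CPM to 0.322, 1.03 and 1.34, and NIMIN2, which encodes a partner of NPR1, from 18.5, 15.3 and 39.8 to 4.60, 7.22 and 4.89. For all 3 genes mock replicate 3 was the highest library, and with 1 library left out the list held 1 to 4 calls. PR1, PR2, ICS1 (SID2) and PBS3 had overlapping groups and no call. PR1 had 1.08, 1.21 and 12.5 CPM after mock and 3.54, 1.11 and 21.0 after ABA, with replicate 3 high in both groups. Of 44 WRKY genes 4 fell (3.08% of all genes), WRKY22, WRKY40, WRKY46 and WRKY47. WRKY40, which restrains immune responses and ABA signalling, had 78.0, 78.4 and 180.9 CPM after mock and 9.43, 6.42 and 51.3 after ABA (log2 fold change -2.81, adjusted p = 0.00231). Of 46 genes annotated with a response to chitin, 13 fell and none rose, a share of 28.3% against 3.08% of all genes, and 5 to 15 fell with 1 library left out. ZAT7, a zinc finger gene in that group, had 2.72, 14.6 and 84.1 CPM after mock and 0.230, 0.223 and 0.995 after ABA. The 14 pattern recognition genes had no call and 7 had an unadjusted p below 0.05 with lower values (6257 of all 18291 genes in either direction). DESeq2 called 3 as lower (6.91% of all genes) and the fit adjusted for length and GC content 1.

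Jasmonate genes had the most calls of any list by number, in a list longer than most. Some shorter lists had a higher share of calls, as the ABA receptors with 4 of 9 and the clade A PP2Cs with 3 of 7. Of 27 genes 8 fell (3.08% of all genes), 17 were lower in all 3 pairs (28.5% of all genes), and the median was -0.92. LOX4 (AT1G72520), a lipoxygenase at the start of jasmonate synthesis, had 36.6, 14.0 and 233.7 CPM after mock and 5.20, 1.52 and 10.9 after ABA (log2 fold change -3.64, SE 0.66, adjusted p = 0.00678). AOC3, a later enzyme, had 14.3, 12.4 and 56.2 CPM after mock and 2.44, 1.52 and 5.54 after ABA. JAZ8, a repressor that jasmonate induces, had 2.46, 1.5 and 30.8 CPM after mock and 0.184, 0.223 and 0.779 after ABA (log2 fold change -4.21), and JAZ5 fell from 13.4, 9.59 and 55.0 to 2.71, 1.78 and 6.14. In each of these genes mock replicate 3 was far above the other mock libraries, and the ABA libraries still lay below all mock libraries. LOX3, OPR3, JAZ1 and JAZ9 were the other 4 calls. The list held 1 call without any 1 of the ABA libraries, 3, 12 and 2 without mock replicate 1, 2 and 3, and 9 after adjustment for length and GC content, with medians between -1.25 and -0.77 with 1 library left out. Over the whole list the summed level was 3441, 2441 and 5328 CPM in mock replicates 1, 2 and 3 and 1487 to 2166 after ABA, and the part of that library's state in the result was not tested. VSP1 and VSP2, storage proteins of the MYC branch, had -0.70 and 0.80. In the defensin branch PDF1.2A fell from 8.32, 0.324 and 13.3 CPM to 0, 0.0446 and 1.21 with overlapping groups and near-identical copies, and the chitinase gene PR3 rose from 0.948, 1.13 and 2.12 to 6.76, 3.48 and 16.1.

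The other genes with the largest falls include several of poorly known function. AT3G55646 had 594 reads over the mock group and 1 after ABA, a ratio of 649 with a 95% exact interval of 116 to 25700. The glutaredoxin gene AT1G06830 had 10.1, 7.00 and 23.1 CPM after mock and 0.046, 0.134 and 0.130 after ABA (log2 fold change -6.93, SE 0.61, adjusted p = 0.000275, quasi-likelihood test in edgeR, Benjamini-Hochberg adjusted). AT2G32200, a small cysteine-rich transmembrane protein gene, fell from 9.27, 7.89 and 35.6 CPM to 0.138, 0.0446 and 0.216. The phloem protein genes PP2-B13 and PP2-A5 changed by -6.03 and -5.83, the ERF family factor AT1G33760 by -6.02 with 230.4 CPM in mock replicate 3 against 18.0 and 14.9 in the other mock libraries, and the glycosyltransferase gene PGSIP7 by -5.84. The noncoding locus AT2G35637 changed by -6.22 and lies opposite to another gene over most of its length, and whether the strand of the reads was used in counting is not given. GER3 (AT5G20630), a germin of the cell wall, fell from 406.8, 294.3 and 199.5 CPM to 4.37, 9.49 and 5.06, and here mock replicate 3 was the lowest mock library (log2 fold change -5.83, SE 0.95). The amino acid permease gene AAP6 fell from 35.7, 19.8 and 45.0 CPM to 1.66, 1.69 and 1.47 (log2 fold change -4.31, adjusted p = 0.000162).

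**Figure D5:**
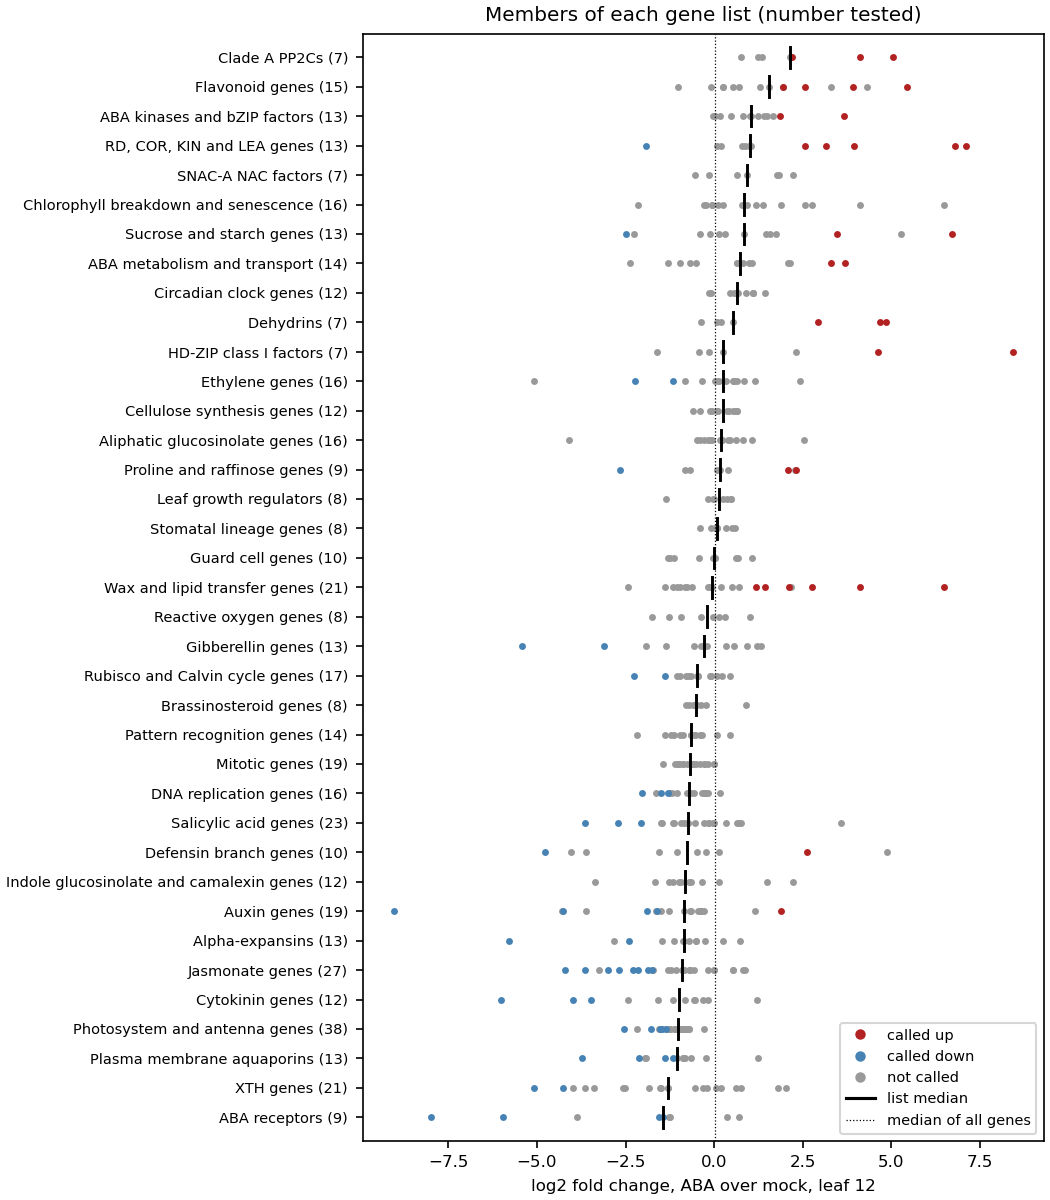
Fitted log2 fold changes, ABA over mock in L12, of the tested members of 37 gene lists (1 row each, with the number tested), coloured by call, with a bar at the list median and a dotted line at the median of all genes (0.03). The clade A PP2Cs lie highest by median (2.15) and the ABA receptors lowest (-1.43). Members with no read in 1 group (PYL6, YUC5 and HB21) are drawn at their fitted value.

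Of the 37 gene lists, 13 had no called member, and these hold 150 tested genes. Among them 20 had an unadjusted p below 0.05 with higher and 30 with lower values after ABA. Over all 18291 tested genes 6257 had one in either direction, so the 150 genes as a set did not stand out. The 13 lists differed in this. Cellulose synthesis had 0 such genes of 12 and the stomatal lineage 0 of 8. Indole glucosinolate and camalexin had 8 of 12 and pattern recognition 7 of 14, all lower, and SNAC-A had 4 of 7, all higher. DESeq2 called 18 of the 150 (4.32% of all genes up and 6.91% down) and limma with voom 2. These lists include the aliphatic glucosinolate genes, where MYB76 had 2.54 (adjusted p = 0.0116), the indole glucosinolate and camalexin genes, where CYP81F2 had -3.35 (adjusted p = 0.0130), the reactive oxygen genes, where APX1 had -1.75 (adjusted p = 0.0143), the guard cell genes, where HT1 had -1.26 (adjusted p = 0.0454), and the circadian clock genes, where PRR5 had 1.1 (adjusted p = 0.0716). By annotation, 9 of 66 genes noted for a response to ABA rose and 1 fell, against 1.47% and 3.08% of all genes. Of 68 noted for water deprivation 8 rose and 7 fell, and 4 of the 7 were the aquaporin genes PIP1;2, PIP2;1, PIP2;2 and PIP2;3.

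Whether young leaves differed from old ones, where 0.935% of genes were called up and 2.0% down, was tested for each gene in the same fit as the difference between their changes. At the same thresholds edgeR called none (smallest adjusted p = 0.0793, 1358 genes with an unadjusted p below 0.05), limma with voom called none and DESeq2 called 35. The smallest adjusted p was that of LTP2, which rose by 2.76 in young leaves and had a log2 fold change of -0.39 in old leaves. No process described here was therefore shown to be particular to young leaves.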

How the data were processed

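RNA from leaves was sequenced, and the authors deposited 1 table of raw read counts per gene for 12 libraries. According to the submitters' processing notes, reads were handled with CASAVA 1.8.2, cutadapt 1.5, TopHat2 2.0.10 and HTSeq 0.6.1 on the TAIR10 build; the libraries were strand-specific, and the sources used here do not say whether counting used the strand, nor its mode. The 5 summary lines of the counter (7.78% to 8.86% of the reads listed in young-leaf libraries) were left out. Groups were taken from the sample labels.

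Counts were scaled by TMM and fitted in edgeR 4.0.16 (R 4.3.3) over all 12 libraries by group, blocked on replicate number like the study's model. A gene was tested, if its mean reached 10 counts, with the quasi-likelihood test and Benjamini-Hochberg adjustment, and called where the adjusted p was under 0.01 and the change exceeded 1 on the log2 scale. In young leaves PYL6, YUC5 and HB21 had reads in 1 group only, so only that group counted towards the filter there. Fold changes used a prior count of 0.125, and CPM are normalized by TMM. The steps were run on simulated counts of independent libraries, without differences by replicate or transcript length. That run therefore says nothing of how the calls respond to either. Where nothing says that replicates came from separate plants beyond the repeated experiment, p-values measure the spread between these libraries.

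Named genes were the 12 largest rises and 12 largest falls with at least 5 CPM in the higher group, up to 4 called members of each list in each direction (in lists without a call, the most abundant member and that with the smallest p), the 5 most abundant called genes in each direction, and the genes that the study followed. Other genes named complete a list or a count, or were chosen after their values were seen. Gene lists and members were chosen with earlier results of these data known. Of 126 named genes, 26 overlap another gene on the opposite strand, and reads of near-identical copies are uncertain. Families and terms come from annotated product names and terms. Promoters and annotation are from RefSeq (TAIR10.1). Intervals cover counting error only. Alternatives were DESeq2 1.42.0, limma 3.58.1 with voom, other scalings, filters and thresholds, a correction for length and GC content of transcripts, fits without the block or with young leaves only, and fits without each library or replicate.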

Additional observations from a re-analysis of the deposited data

Results flagged for a closer look

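The 2 genes given here changed in opposite directions in young and old leaves in all pairs of each, and for neither did the test of that difference pass. They are not a count over all tested genes. The 294 cytosolic ribosomal protein genes had a median of -0.38 in young leaves and 0.28 in old leaves, both without adjustment for length and GC content. After that adjustment the young-leaf median was -0.15, and no adjusted value is given for old leaves. Their median transcript length was 1012 bases against 1758 over all tested genes. For 98 of the 294 the difference had an unadjusted p below 0.05, against 1358 of all 18291 tested genes. The smallest adjusted p among them was 0.340 (edgeR), and the part of transcript length in this was not tested. LTP2, a lipid transfer protein gene, was higher after ABA in all 3 young pairs and lower in all 3 old pairs, with log2 fold changes of 2.76 and -0.39 and a difference of 3.15 (adjusted p = 0.0793, quasi-likelihood test in edgeR, Benjamini-Hochberg adjusted). ARGOS, which promotes organ growth, was lower in all 3 young pairs and higher in all 3 old pairs, with log2 fold changes of -1.37 and 1.5 and a difference of -2.88 (adjusted p = 0.549).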

How the results depend on the processing

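No called gene among the 96 of 126 named changed direction in any of the 22 alternative fits that tested it (95 were tested without mock replicate 2, mock replicate 3 or replicate 2), and 11 uncalled ones did. The 96 were chosen as called in these same libraries, so a kept direction follows largely from that choice. Their calls were less stable, as 72 of the 96 were lost without the replicate block and all 96 without replicate 3. The numbers of genes up and down were 791 and 1263 with DESeq2 (268 and 562 of them shared), 780 and 1387 at an adjusted p below 0.05, 318 and 252 with library size only, 116 and 227 with young-leaf libraries only, and 3 and 1 with these and no replicate block, an alternative chosen after seeing the data. Leaving out 1 library or 1 replicate gave 0 to 1120 up and 0 to 945 down. The 0 in both directions came without replicate 3 (edgeR, smallest adjusted p 0.0148, 3152 genes with an unadjusted p below 0.05). Replicate numbers did not pair the young libraries by the rule that every pair correlates above 0.1 (r 0.0763 to 0.596, 2 of 3 pairs above), and with no replicate block 67 genes were up and 72 down. The difference between leaf ages gave 35 genes with DESeq2 and 1 with library size only. Values that changed sign, all of uncalled genes, were as follows. With library size only, ICS1 had 0.084, PBS3 0.36 and CPD 0.11. With the length and GC adjustment, CESA3 had -0.60, CESA2 -0.067, SCRM -0.083, AHA1 -0.049 and CAT3 -0.24. With no replicate block, PBS3 had 0.041, CESA3 -0.031 and GRF3 -0.016. With young-leaf libraries only, PBS3 had 0.037 and GRF3 -0.047, and PBS3 had 0.097 with no replicate block there. With voom, PBS3 had 0.00394 and GRF3 -0.11, and with upper quartile scaling PBS3 had 0.00593. Leaving out 1 library or replicate gave -0.20 to 0.77 for PR2, -0.61 to 0.038 for ICS1, -0.16 to 0.23 for PBS3, -0.027 to 2.26 for ASN1, -0.28 to 0.35 for CESA3, -0.31 to 0.48 for GRF3, -0.039 to 0.23 for SCRM and -0.45 to 0.099 for CPD. The causes were not tested. With 3 libraries a group, and mock replicates 2 and 3 apart, calls near the threshold are the least certain.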
